A study of Homo sapiens with 12 samples.

Results

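The inducible and cytosolic heat shock genes followed here were HSPA6, HSPB1, SERPINH1, DNAJB1, HSPA1A, HSPA1B, HSPH1, HSP90AA1, HSPA8 and HSF1. They were found by symbol on the primary chromosomes, 10 of the 60675 genes in the count table, and all 10 passed the filter on low counts. They were chosen by measured values, because HSPA6, HSPB1 and SERPINH1 were higher with IgM in cells expressing wild-type Roquin2 and not in cells expressing Roquin2 Y691F. The IgM libraries therefore chose the genes, and every comparison that contains an IgM library is given for them as a description without a test. Roquin2 is the RNA-binding protein encoded by RC3H2, and the study asked how its Y691F form alters mRNA levels when the B cell receptor is engaged. The cells were U-2932, an established human diffuse large B cell lymphoma line. All of them stably carried a Roquin2 construct, so no group without one serves as a baseline. RNA was sequenced in 4 groups of 3 libraries, from independent biological replicates per the labels: Y691F with IgM, WT with IgM, Y691F untreated and WT untreated. IgM stands for F(ab')2-IgM, an antibody fragment that engages the B cell receptor, given at 10 µg/ml for 12 h. The labels leave unsaid whether 1 line or several carried each Roquin2 form.

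Heat shock factor 1, the product of HSF1, is a transcription factor kept inactive in unstressed cells by chaperones. When unfolded protein accumulates it forms trimers, binds heat shock elements and switches on the chaperone genes. HSPA8 and HSP90AA1 encode chaperones that are abundant in unstressed cells, whereas HSPA6, HSPA1A, HSPA1B and DNAJB1 are textbook inducible genes.

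Heat shock elements are inverted repeats of GAA and its complement TTC, and the start regions of the genes were searched for them because these are the letters through which HSF1 is known to act. The windows came from RefSeq (GRCh38.p14) and run from 250 bases before to 50 bases from the annotated start. An entry was found for 9 of the 10 genes, with 13 windows between them. The search took the pairs GAANNTTC and TTCNNGAA, both of which read the same on either strand and may overlap. Of all 35116 windows, 13.5% held such a pair and 0.490% held 3 alternating units in a row. The windows of 8 members held a pair, and those of 4 members, HSPA6, SERPINH1, HSP90AA1 and HSPA8, held 3 alternating units. A member was counted if any of its windows matched, whereas the shares over all windows are per window. A match is a description of letters and shows no binding. No match was present in the window of HSPH1, in the window of the second SERPINH1 start, or in the windows of the most upstream starts of DNAJB1 and HSP90AA1.

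The windows shown are those of the 3 genes that define the selection, followed by DNAJB1 and HSPA1A, inducible genes with intermediate IgM responses, and by HSP90AA1 and HSPA8, which are abundant in untreated cells. Matching bases are in capitals and everything else is in lower case, 5′ to 3′ on the strand of the gene. HSPA6 is chr1:161524290-161524589 on the plus strand, HSPB1 is chr7:76302423-76302722 on the plus strand, and SERPINH1 is chr11:75562003-75562302 on the plus strand. DNAJB1 is chr19:14518348-14518647 on the minus strand and HSPA1A is chr6:31815293-31815592 on the plus strand. HSP90AA1 is chr14:102086995-102087294 and HSPA8 is chr11:123062087-123062386, both on the minus strand.
HSPA6: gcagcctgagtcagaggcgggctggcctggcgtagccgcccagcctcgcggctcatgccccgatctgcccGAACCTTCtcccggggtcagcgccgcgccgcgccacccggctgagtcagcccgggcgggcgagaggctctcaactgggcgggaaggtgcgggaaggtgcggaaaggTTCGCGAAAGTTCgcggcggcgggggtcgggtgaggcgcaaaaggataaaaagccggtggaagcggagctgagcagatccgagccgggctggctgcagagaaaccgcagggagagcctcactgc
HSPB1: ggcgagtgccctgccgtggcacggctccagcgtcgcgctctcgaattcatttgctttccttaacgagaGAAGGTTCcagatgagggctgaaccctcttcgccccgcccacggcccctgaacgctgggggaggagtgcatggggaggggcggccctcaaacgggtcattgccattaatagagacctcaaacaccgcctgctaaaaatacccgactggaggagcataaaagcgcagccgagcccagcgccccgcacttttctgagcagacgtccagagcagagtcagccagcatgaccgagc
SERPINH1: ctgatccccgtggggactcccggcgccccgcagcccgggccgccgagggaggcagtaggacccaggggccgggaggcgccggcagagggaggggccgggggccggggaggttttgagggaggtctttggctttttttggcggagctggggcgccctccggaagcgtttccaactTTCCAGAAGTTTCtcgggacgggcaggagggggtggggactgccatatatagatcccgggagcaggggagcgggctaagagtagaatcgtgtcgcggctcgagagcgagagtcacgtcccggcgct
DNAJB1: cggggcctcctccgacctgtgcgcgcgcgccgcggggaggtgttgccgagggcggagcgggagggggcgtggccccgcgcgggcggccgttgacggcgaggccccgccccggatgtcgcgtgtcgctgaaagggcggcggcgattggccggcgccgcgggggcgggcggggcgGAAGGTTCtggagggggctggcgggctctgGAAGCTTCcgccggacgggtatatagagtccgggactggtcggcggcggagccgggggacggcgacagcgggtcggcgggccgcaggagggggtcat
HSPA1A: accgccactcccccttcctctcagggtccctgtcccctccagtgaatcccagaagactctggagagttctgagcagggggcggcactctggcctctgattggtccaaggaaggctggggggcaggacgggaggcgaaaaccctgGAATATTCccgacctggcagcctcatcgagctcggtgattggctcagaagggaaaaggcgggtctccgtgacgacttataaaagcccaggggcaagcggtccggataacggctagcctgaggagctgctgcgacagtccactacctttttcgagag
HSP90AA1: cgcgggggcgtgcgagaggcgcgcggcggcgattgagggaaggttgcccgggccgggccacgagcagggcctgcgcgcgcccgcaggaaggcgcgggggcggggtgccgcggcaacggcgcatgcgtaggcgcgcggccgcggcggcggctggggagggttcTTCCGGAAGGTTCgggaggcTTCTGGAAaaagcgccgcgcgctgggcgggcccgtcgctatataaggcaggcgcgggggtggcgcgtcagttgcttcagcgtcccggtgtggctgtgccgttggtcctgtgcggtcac
HSPA8: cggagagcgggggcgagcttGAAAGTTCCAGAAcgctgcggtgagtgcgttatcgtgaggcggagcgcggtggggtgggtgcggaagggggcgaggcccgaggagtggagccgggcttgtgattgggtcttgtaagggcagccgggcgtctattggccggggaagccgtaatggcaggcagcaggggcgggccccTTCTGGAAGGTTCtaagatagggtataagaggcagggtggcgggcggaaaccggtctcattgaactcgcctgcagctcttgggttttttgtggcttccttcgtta
In HSPA6 the 3 units ran from base -74 to base -62 relative to the start, with a separate pair from -180 to -173. The 3 units of SERPINH1 lay at a similar place, from -76 to -64. HSPB1 held a pair from -182 to -175 and HSPA1A held a pair from -106 to -99. DNAJB1 held pairs from -77 to -70 and from -47 to -40. HSP90AA1 held 3 units from -88 to -76, and HSPA8 held 3 units at -230 to -218 and again at -55 to -43. The longer match was thus shared by genes with large and with small differences between the groups.

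**Figure D1:**
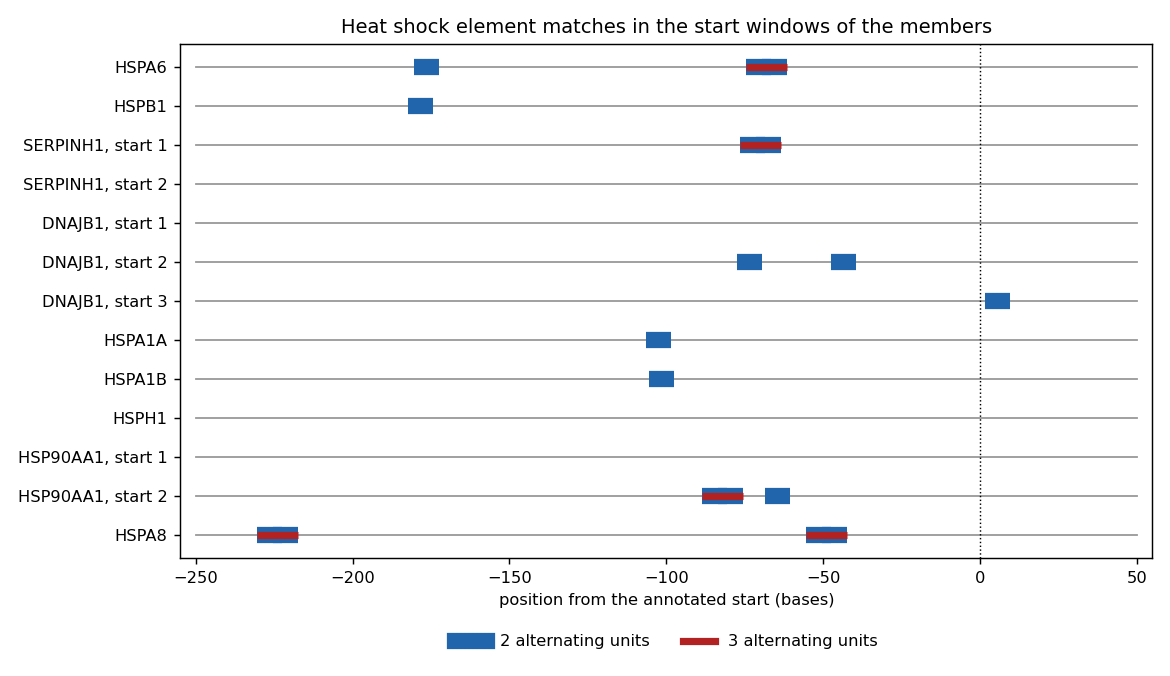
Position in bases from the annotated start (x axis) of heat shock element matches in each start window of the members (rows, grey lines). Blue blocks are pairs of units and red bars are 3 alternating units, which appear in HSPA6, SERPINH1, the second HSP90AA1 start and HSPA8.

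Library totals ran from 16754981 to 19674442 counts in Y691F with IgM, 16465393 to 19392749 in WT with IgM, 18390011 to 20431651 in untreated Y691F and 16496168 to 21478790 in untreated WT. Levels are given as counts, as CPM (counts scaled to a common library size, with the library total adjusted by TMM) or, for comparisons between genes, as the deposited RPKM, which divides by gene length. Means are given ± SD with n = 3 libraries. Of the 60675 genes, 15112 were tested. The gene of Roquin2 itself, RC3H2, averaged 206 ± 1.79 CPM in the Y691F libraries given IgM and 121 ± 1.80 CPM in those of WT, and 209 ± 0.880 and 111 ± 1.08 CPM in the untreated Y691F and WT libraries, so the lines also differed in the level of this transcript. Constructs and the endogenous gene are not told apart in these counts. All 6 B cell markers were present, with a summed level of 2135 to 2182 CPM in Y691F and 2201 to 2245 CPM in WT with IgM, and of 2827 to 2853 CPM in Y691F and 3232 to 3277 CPM in WT untreated. The 5 T and NK cell markers summed to at most 0.403 CPM, with 3 of them at 0 in every library, and the 5 myeloid markers to between 0.756 and 1.58 CPM. The 5 epithelial markers summed to between 18.7 and 24.2 CPM, with 2 of them, KRT19 and CDH1, at 0 in every library. Nearly all of this sum was EPCAM, which reached 24.0 CPM, whereas KRT8 and KRT18 reached at most 0.108 and 0.127 CPM. In bulk RNA, fewer cells making a transcript and less transcript per cell cannot be told apart.

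HSPA6 (ENSG00000173110, GRCh38 chr1:161524540-161526910, plus strand), a strictly stress-inducible member of the HSP70 family, was close to absent in 3 of the 4 groups and present in WT cells given IgM. Its counts were 6, 7 and 4 in Y691F with IgM, against 453, 456 and 383 in WT with IgM. Untreated libraries held 9, 5 and 2 counts in Y691F and 12, 21 and 5 in WT. The 3 WT libraries with IgM stood above all 9 others with no value between. In CPM, HSPA6 averaged 0.321 ± 0.0620 in Y691F and 25.4 ± 1.50 in WT with IgM, and 0.258 ± 0.157 in Y691F and 0.619 ± 0.324 in WT untreated. The log2 difference of Y691F against WT with IgM was -6.26 ± 0.17 (SE), a 76.7-fold lower level. IgM against untreated gave a log2 change of 0.30 ± 0.51 in Y691F and 5.28 ± 0.15 in WT. The Y691F estimate rests on few reads, and it lay between -0.069 and 0.84 over the alternatives, the highest without untreated Y691F replicate 1.

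HSPA7 is a pseudogene close in sequence to HSPA6, and reads can be split between them. Their annotated transcripts were identical at 1899 of 1926 aligned positions, or 98.6%. HSPA7 held 1, 1 and 0 counts in Y691F with IgM and 92, 73 and 55 counts in WT with IgM, so its pattern followed that of HSPA6. Untreated libraries held 0 to 2 counts of it in either line. How many of these counts belong to HSPA6 cannot be told apart from the table, and the division between both is uncertain. The genes within 50 kb of HSPA6 did not share its pattern. FCGR2A, an Fc receptor gene, had 2 to 3 counts in Y691F and 1 to 3 in WT with IgM, against 11 to 18 in Y691F and 13 to 17 in WT untreated, and the other 4 neighbours in the table had no count.

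HSPB1 (ENSG00000106211, chr7:76302544-76304295, plus strand), a small heat shock protein that holds unfolded proteins without using ATP, had the same shape at a higher base level. Its counts were 33, 32 and 22 in Y691F with IgM, against 325, 332 and 254 in WT with IgM. Untreated cells held 27, 31 and 29 counts in Y691F and 30, 48 and 23 in WT. Only the WT libraries with IgM stood apart. HSPB1 averaged 1.65 ± 0.228 CPM in Y691F and 17.9 ± 1.63 CPM in WT with IgM, a log2 difference of -3.42 ± 0.13. The log2 change with IgM was 0.22 ± 0.22 in Y691F and 3.38 ± 0.13 in WT. The pseudogene HSPB1P1 held 0, 1 and 1 counts in Y691F and 7, 15 and 4 in WT with IgM, and reads may be split between it and HSPB1. Near HSPB1 the gene YWHAG reached 289 CPM for Y691F and 304 CPM for WT given IgM, against 342 CPM for Y691F and 363 CPM for WT untreated.

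SERPINH1 (ENSG00000149257, chr11:75562056-75572783, plus strand) encodes HSP47, a collagen chaperone of the endoplasmic reticulum that is known as a heat shock target. It had the lowest mean RPKM of the members in every group. With IgM it held 11, 9 and 7 counts in Y691F and 59, 59 and 43 counts in WT. Untreated libraries held 5, 8 and 7 counts in Y691F and 5, 3 and 3 in WT. The WT libraries with IgM were again the highest, and the Y691F libraries with IgM overlapped with untreated Y691F in counts and lay above it in CPM. SERPINH1 averaged 0.513 ± 0.0878 CPM in Y691F and 3.15 ± 0.396 CPM in WT with IgM. The log2 difference was -2.60 ± 0.26, and the log2 change with IgM was 0.64 ± 0.42 in Y691F and 4.03 ± 0.31 in WT. The 6 fibroblast markers summed to 2.56 to 3.04 CPM in Y691F and 1.53 to 1.86 CPM in WT with IgM, and to 2.25 to 2.64 CPM in Y691F and 3.55 to 3.67 CPM in WT untreated. Among them COL1A2 was higher with IgM in both lines, with a mean of 1.53 ± 0.218 CPM for Y691F and 0.549 ± 0.0614 CPM for WT. DCN was lower with IgM, with 0.254 ± 0.112 CPM for Y691F and 0.272 ± 0.0706 CPM for WT. In untreated cells COL1A2 averaged 0.0321 ± 0.0279 CPM for Y691F with no count in WT, and DCN averaged 1.52 ± 0.262 CPM for Y691F and 2.12 ± 0.145 CPM for WT. COL3A1 and PDGFRB had at most 1 count in any library, and LUM at most 11. The markers thus did not move together with IgM. Whether any of these counts came from fibroblasts, and whether that bears on the SERPINH1 values, was not tested.

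**Figure D2:**
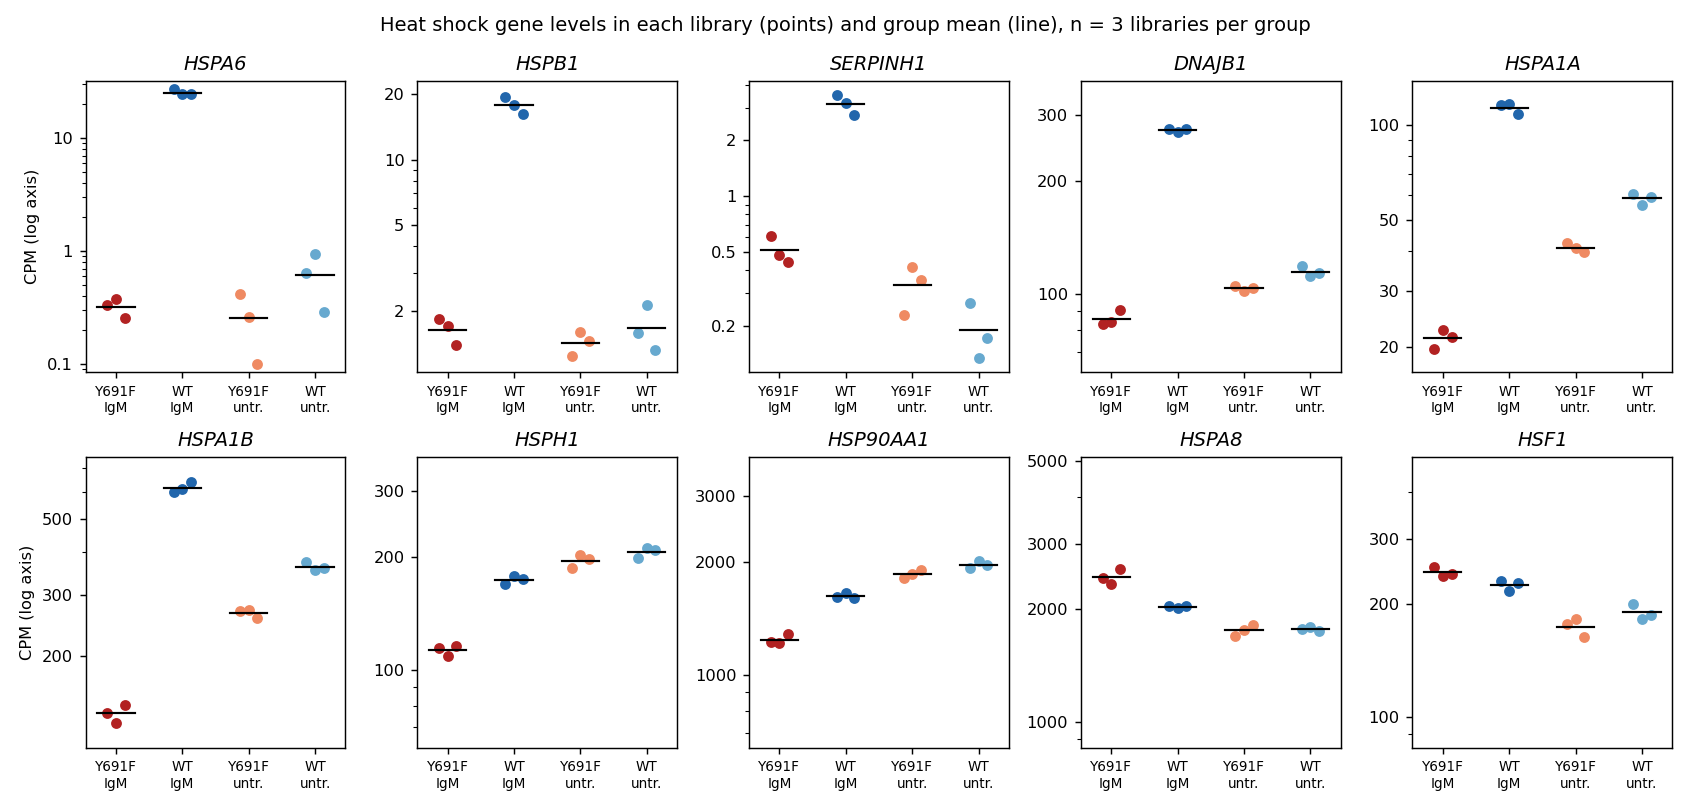
Level of each heat shock gene in CPM on a log axis (y) in the 4 groups (x), with a point for each library and a line at the mean of 3. HSPA6, HSPB1 and SERPINH1 are high in WT with IgM alone, whereas DNAJB1, HSPA1A and HSPA1B are lowest in Y691F with IgM and highest in WT with IgM.

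The main inducible HSP70 genes and their cochaperone were lower with IgM in Y691F and higher with IgM in WT. DNAJB1 (ENSG00000132002, chr19:14514770-14529770, minus strand), the HSP40 protein that delivers clients to HSP70, had 82.8, 84.2 and 90.4 CPM in Y691F with IgM, against 275, 271 and 276 CPM in WT with IgM. In untreated cells it had 105, 101 and 104 CPM in Y691F and 119, 112 and 114 CPM in WT. No library of any group overlapped with another group. The log2 change with IgM was -0.27 ± 0.037 in Y691F and 1.26 ± 0.033 in WT, and with IgM the log2 difference of Y691F against WT was -1.68 ± 0.035.

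HSPA1A (ENSG00000204389, chr6:31815464-31817946, plus strand) and HSPA1B (ENSG00000204388, chr6:31827735-31830255, plus strand) are neighbouring genes for the major inducible HSP70. HSPA1A had 19.7, 22.6 and 21.5 CPM in Y691F with IgM, against 116, 116 and 108 CPM in WT with IgM. Untreated cells had 42.4, 40.9 and 39.8 CPM in Y691F and 60.8, 55.9 and 59.3 CPM in WT. The groups stood in the order Y691F with IgM, Y691F untreated, WT untreated and WT with IgM, from low to high, without overlap. HSPA1B kept that order at higher levels, with 136 ± 7.78 CPM in Y691F and 616 ± 21.9 CPM in WT with IgM, and 266 ± 7.96 CPM in Y691F and 363 ± 9.43 CPM in WT untreated. For HSPA1A the log2 change with IgM was -0.95 ± 0.057 in Y691F and 0.95 ± 0.042 in WT. For HSPA1B it was -0.97 ± 0.034 in Y691F and 0.76 ± 0.030 in WT. The difference of Y691F against WT with IgM was -2.41 ± 0.050 for HSPA1A and -2.18 ± 0.033 for HSPA1B on the log2 scale.

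The transcripts of HSPA1A and HSPA1B were identical at 2298 of 2396 aligned positions, or 95.9%, so the division of reads between them is uncertain. HSPA1A took 12.6% to 16.2% of the reads of the pair over the 12 libraries. Their sum, which does not depend on that division, reached 151 to 165 CPM in Y691F with IgM, against 712 to 748 CPM in WT with IgM, and 297 to 313 CPM in Y691F and 411 to 435 CPM in WT untreated. Summed before the fit, the log2 difference of Y691F against WT with IgM was -2.21.

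HSPH1 and HSP90AA1 were lower with IgM in both lines, and further so in Y691F. HSPH1 (ENSG00000120694, chr13:31134974-31162388, minus strand), the nucleotide exchange factor HSP110, had 114, 109 and 116 CPM in Y691F with IgM, against 169, 178 and 174 CPM in WT with IgM. It averaged 196 ± 7.86 CPM in Y691F and 206 ± 6.11 CPM in WT untreated. Its log2 change with IgM was -0.79 ± 0.035 in Y691F and -0.25 ± 0.033 in WT. HSP90AA1 (ENSG00000080824, chr14:102080738-102139699, minus strand), the inducible cytosolic HSP90, followed the same order, with 1239 ± 38.9 CPM in Y691F and 1626 ± 28.4 CPM in WT with IgM. Untreated cells had 1858 ± 46.1 CPM in Y691F and 1968 ± 44.4 CPM in WT. The log2 change of HSP90AA1 with IgM was -0.58 ± 0.027 in Y691F and -0.28 ± 0.027 in WT. HSP90AA2P, a pseudogene of HSP90AA1, held 1563 counts summed over the 3 Y691F libraries and 1949 over the 3 WT libraries with IgM, and 2754 in Y691F and 2732 in WT untreated, so some HSP90AA1 reads may be counted there.

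HSPA8 and HSF1 were higher with IgM in both lines. HSPA8 (ENSG00000109971, chr11:123057489-123063230, minus strand) is the constitutive HSP70. It had 2425, 2338 and 2570 CPM in Y691F with IgM, against 2042, 2018 and 2042 CPM in WT with IgM. Untreated levels were 1757 ± 56.6 CPM in Y691F and 1772 ± 19.9 CPM in WT. Its log2 change with IgM was 0.48 ± 0.028 in Y691F and 0.20 ± 0.028 in WT. HSF1 (ENSG00000185122, chr8:144291591-144314722, plus strand), the transcription factor gene, had 252, 238 and 241 CPM in Y691F with IgM, against 231, 218 and 228 CPM in WT with IgM, and 175 ± 10.2 CPM in Y691F and 190.5 ± 9.21 CPM in WT untreated. Its log2 change was 0.48 ± 0.034 in Y691F and 0.24 ± 0.035 in WT. Scaling by library totals moved the median of all genes with IgM by -0.17 in Y691F and by -0.13 in WT. With it the changes were 0.31 in Y691F and 0.064 in WT for HSPA8, and 0.31 in Y691F and 0.11 in WT for HSF1. The same scaling gave -0.44 for DNAJB1 in Y691F and -0.38 for HSPH1 in WT, and 0 members changed direction with IgM under it. The mRNA of the factor was thus slightly higher in Y691F with IgM, where 8 other members were lower than in WT. mRNA levels say nothing of the activity of the protein.

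Over the 10 members, 2 had all 3 Y691F libraries above the 3 WT libraries with IgM and 8 had all 3 below. Of all tested genes, 21.9% were called higher and 20.2% lower in Y691F with IgM, at an adjusted p under 0.05. The median log2 difference was -1.93 over the members and -0.0049 over all tested genes. With IgM in WT, 8 members had all IgM libraries above the untreated ones and 2 had all below, where 38.4% of all genes were called higher and 38.5% lower. With IgM in Y691F, 3 members were above, 5 were below and 2 overlapped, where 37.1% of all genes were called higher and 38.7% lower. The IgM response in Y691F minus that in WT was above 0 for 2 members, HSPA8 and HSF1, and below 0 for 8. Among all genes this difference was called higher for 14.7% and lower for 11.0%. It ran from -4.98 ± 0.65 for HSPA6 to 0.28 ± 0.040 for HSPA8 on the log2 scale. Since the IgM libraries chose the members, nothing is read from these counts. Member counts go by non-overlap of libraries, or by sign for the difference between the responses. The shares of all genes go by adjusted p and are a different measure. The comparisons share libraries with each other, and their values are therefore given side by side without a measure of overlap.

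**Figure D3:**
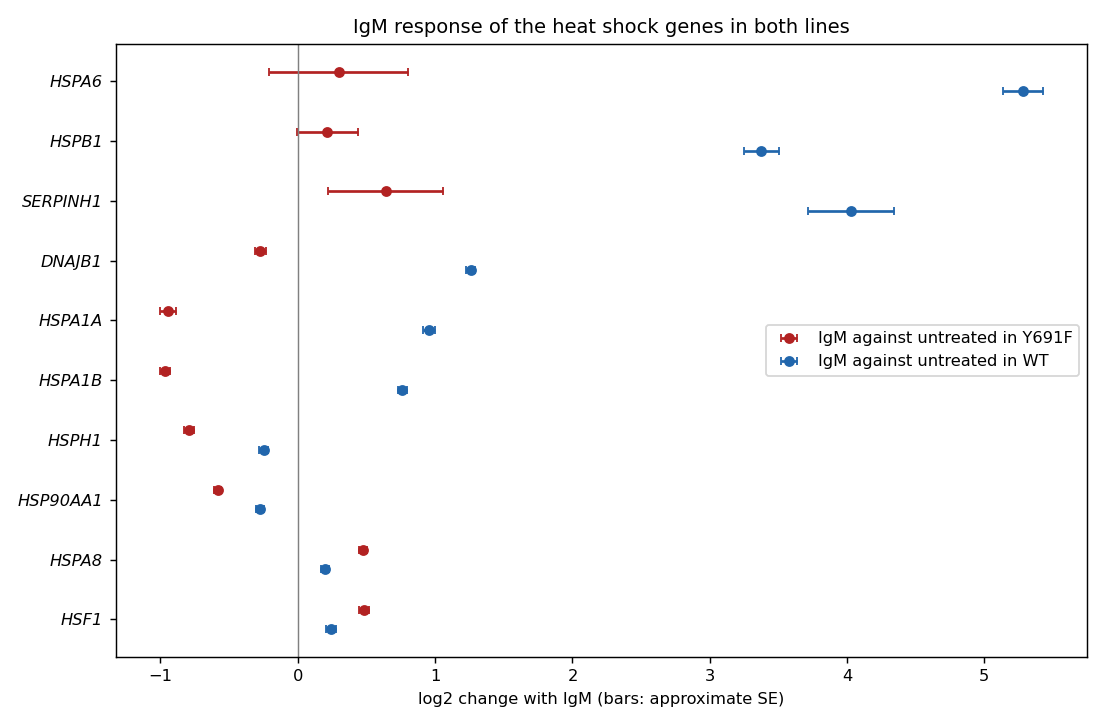
Log2 change with IgM against untreated cells (x axis) for each heat shock gene (rows), in Y691F (red) and WT (blue), with bars of 1 approximate SE. DNAJB1, HSPA1A and HSPA1B lie on opposite sides of 0 in the lines, and HSPH1, HSP90AA1, HSPA8 and HSF1 lie on the same side.

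Untreated cells give the only comparison of Y691F with WT that contains no IgM library, although its libraries also entered the IgM responses behind the selection. Here p is 2-sided from the quasi-likelihood test of edgeR with Benjamini-Hochberg adjustment over all 15112 genes. HSPA6 and SERPINH1 passed the filter on low counts through WT with IgM and not through the untreated libraries, so they are left out of the count and no p is given for them. Of the other 8 members, 0 were called higher and 5 lower in Y691F, where 15.1% of all genes were called higher and 16.1% lower. Without adjustment, 0 of the 8 were higher and 6 lower at p under 0.05, and DESeq2 and limma-voom also called 0 higher and 5 lower. HSPA1B fell in Y691F, with a log2 change of -0.45 ± 0.031 (adjusted p = 2.46e-21), as did HSPA1A with -0.51 ± 0.047 (adjusted p = 5.28e-16). DNAJB1 fell as well, with a log2 change of -0.15 ± 0.036 (adjusted p = 5.92e-04), and in all 3 genes the Y691F libraries lay below every WT library. These calls held in each alternative that was run. The other calls depended on single libraries. HSF1 had a log2 change of -0.12 ± 0.035 (adjusted p = 0.00319) with overlapping libraries, and the adjusted p was 0.0725 without WT replicate 1 and 0.0794 without Y691F replicate 3. For HSP90AA1 the log2 change was -0.083 ± 0.027 (adjusted p = 0.0123), and the adjusted p was 0.114 without WT replicate 2 and 0.120 without Y691F replicate 1. It was 0.0612 with a filter of 5 CPM and 0.0553 with the 6 untreated libraries alone.

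HSPH1, HSPB1 and HSPA8 were not called in untreated cells. HSPH1 had a log2 change of -0.076 ± 0.032 (adjusted p = 0.0619), and the adjusted p was 0.0230 without WT replicate 1 and 0.0193 without Y691F replicate 2. HSPB1, on few reads, stood at -0.26 ± 0.22 (adjusted p = 0.387). HSPA8 stood at -0.013 ± 0.028 (adjusted p = 0.774). HSPA6 had a log2 change of -1.28 ± 0.42 and SERPINH1 of 0.79 ± 0.52, with overlapping libraries in both genes.

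By length-scaled level, HSPA8 led the members in 3 of the 4 groups. In Y691F with IgM the order of mean RPKM was HSPA8 at 391, HSP90AA1 at 183, HSPA1B at 42.0, HSF1 at 35.6, DNAJB1 at 18.1, HSPH1 at 10.4, HSPA1A at 6.64, HSPB1 at 0.781, HSPA6 at 0.105 and SERPINH1 at 0.0808. HSPA6 and SERPINH1 overlapped there and all other neighbours were apart. In WT with IgM it was HSPA8 at 325, HSP90AA1 at 240.4, HSPA1B at 189.6, DNAJB1 at 57.9, HSPA1A at 35.4, HSF1 at 32.9, HSPH1 at 16.1, HSPB1 at 8.48, HSPA6 at 8.31 and SERPINH1 at 0.498, with HSPB1 and HSPA6 overlapping. DNAJB1 and HSPA1A thus stood above HSF1 in WT with IgM and below it in the other groups. Among untreated cells HSPA8 and HSP90AA1 overlapped in either line, at 308 and 301 RPKM in Y691F and at 311 and 319 RPKM in WT. Even in WT with IgM, HSPA6 and HSPB1 reached a small part of the RPKM of the constitutive genes. All members together took 0.392% to 0.421% of the counts in Y691F and 0.485% to 0.489% in WT with IgM, and 0.457% to 0.477% in Y691F and 0.482% to 0.494% in WT untreated.

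Across the 12 libraries, which share the 4 groups, the members fell into patterns that are described here without a test. HSPA6 followed HSPB1 with a Pearson r of 0.984 over log2 CPM and DNAJB1 with 0.965. Since HSPA6 and HSPB1 were chosen for the same pattern over the groups, a high r between them follows from the choice. HSPA1A followed HSPA1B with 0.993, and HSPH1 followed HSP90AA1 with 0.988. HSPA8 ran opposite to HSP90AA1, with an r of -0.951, and alongside HSF1, with 0.882. HSF1 was only loosely related to HSPA6, with 0.377. Among 10050 other genes with a mean of at least 1 CPM, those most like HSPA6 were ABLIM1, with an r of 0.976, ATP6V0A1, MGA, DHRS11, AMDHD2, SETDB2, TES and USF2. ABLIM1 was also the closest to HSPB1, with an r of 0.993, with 105 CPM for Y691F and 209 CPM for WT given IgM, and 98.7 CPM for Y691F and 99.7 CPM for WT untreated. The next after it for HSPB1 were SETDB2, GCFC2, SRRD, TTC26, ATP6V0A1, AMDHD2 and MGA. For SERPINH1 they were NEIL2, with an r of 0.976, LYN, UVRAG, TNFRSF14, RNF14, DYRK2, ZGRF1 and ICAM5. TNFRSF14 reached 12.7 CPM for Y691F and 84.2 CPM for WT given IgM, and 6.72 CPM for Y691F and 6.11 CPM for WT untreated.

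Genes outside the 10 members were taken from lists of chaperones and related genes that share no gene with the members, and these were tested. The first list held 32 cytosolic chaperones and cochaperones, including the mitochondrial pair HSPD1 and HSPE1, and all 32 passed the filter. With IgM, Y691F was called higher for 7 and lower for 12 of them, and untreated Y691F was called higher for 3 and lower for 17. Over all tested genes Y691F was called higher for 21.9% and lower for 20.2% with IgM, and for 15.1% and 16.1% untreated. With IgM, 16 rose and 7 fell in Y691F, and 18 rose and 7 fell in WT. With scaling by library totals these were 11 and 14 in Y691F, and 14 and 11 in WT. In the main fit 37.1% of all tested genes rose and 38.7% fell in Y691F, and 38.4% rose and 38.5% fell in WT. The difference between the IgM responses was called higher for 10 and lower for 6, with a median log2 of 0.011 over the list and 0.0069 over all genes. Of all tested genes, 14.7% were called higher and 11.0% lower in this difference. In untreated cells the median log2 change of Y691F against WT was -0.096 over the list, against -0.0078 over all genes.

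Of that list, DNAJA4 and BAG3 had the largest differences between the IgM responses in size, and both lay in the direction of the inducible members. DNAJA4, an HSP40 cochaperone, averaged 25.7 ± 0.425 CPM in Y691F and 62.5 ± 0.384 CPM in WT with IgM, and 24.5 ± 1.16 CPM in Y691F and 34.6 ± 0.618 CPM in WT untreated. It rose with IgM in WT, by a log2 of 0.85 ± 0.048, and stood at 0.070 ± 0.059 in Y691F (edgeR adjusted p = 0.277). The difference between both was -0.78 ± 0.076 (adjusted p = 2.16e-14). BAG3, an HSP70 exchange factor and a known HSF1 target, averaged 11.6 ± 1.30 CPM in Y691F and 18.5 ± 1.21 CPM in WT with IgM, and 10.3 ± 0.550 CPM in Y691F and 11.2 ± 0.425 CPM in WT untreated. Its responses differed by -0.55 ± 0.12 on the log2 scale (edgeR adjusted p = 1.98e-04). DNAJB6, DNAJA1 and HSPD1 went the other way, with differences of 0.32, 0.16 and 0.22 (edgeR adjusted p = 7.77e-07, 0.00342 and 3.75e-06). HSPE1, the partner of HSPD1, stood at -0.033 (edgeR adjusted p = 0.760) and HSP90AB1, the constitutive HSP90, at 0.077 (adjusted p = 0.135).

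**Figure D4:**
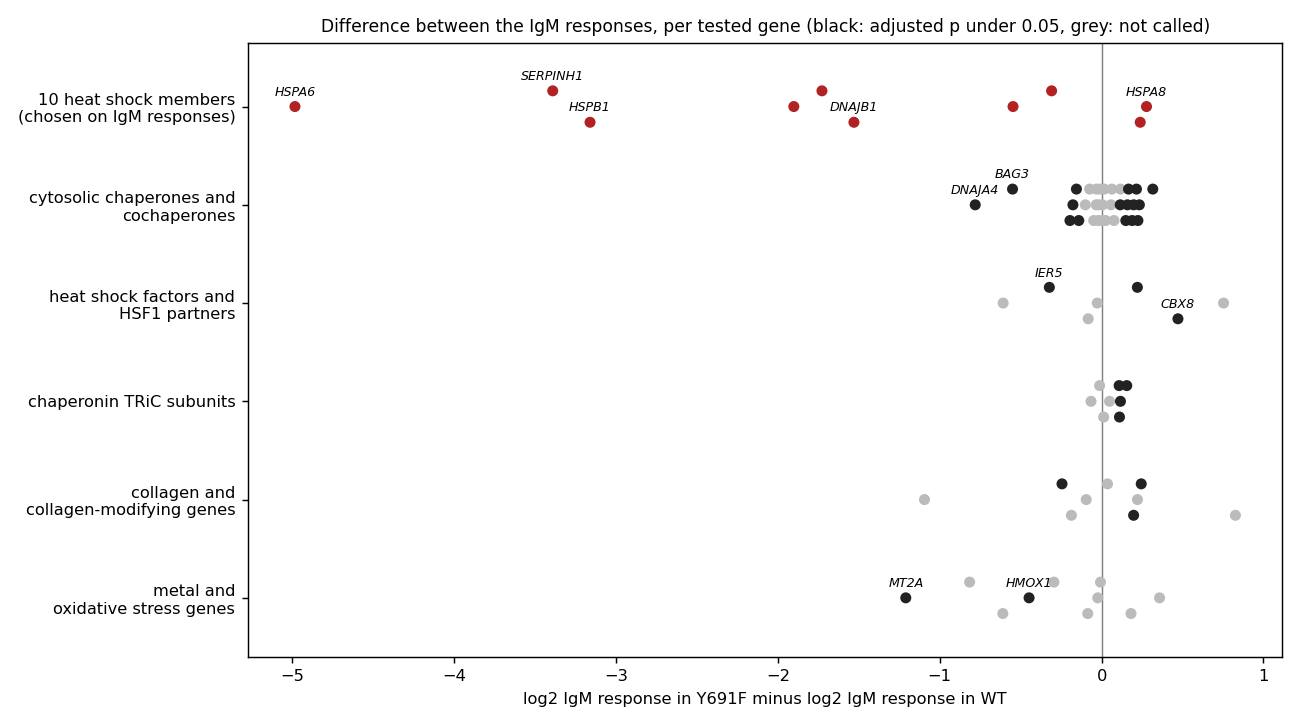
Log2 IgM response in Y691F minus that in WT (x axis) for the members (red, not tested here) and for each tested gene of the 5 lists with tested genes (rows). Black points passed an adjusted p under 0.05 and grey points did not, and DNAJA4, BAG3 and MT2A lie furthest to the left among the black points.

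The small heat shock genes other than HSPB1 were too rare to test, with 0 of 8 passing the filter and at most 4 counts in any library. CRYAB, the closest relative by function, held 2, 0 and 0 counts in Y691F and 3, 3 and 2 in WT with IgM, and 0, 0 and 1 in Y691F and 0, 0 and 0 in WT untreated. Among heat shock factors and genes linked to HSF1, 7 of 8 were tested, and the difference between the IgM responses was called higher for CBX8 and DEDD2 and lower for IER5. Of all tested genes, 14.7% were called higher and 11.0% lower. IER5, an immediate early gene known to activate HSF1, averaged 59.3 ± 3.99 CPM in Y691F and 104 ± 1.03 CPM in WT with IgM, and 65.6 ± 3.33 CPM in Y691F and 91.3 ± 2.59 CPM in WT untreated. It fell with IgM in Y691F, by -0.14 ± 0.044 on the log2 scale (edgeR adjusted p = 0.00322), and rose in WT, by 0.18 ± 0.040 (edgeR adjusted p = 2.77e-05). The difference was -0.32 ± 0.059 (edgeR adjusted p = 8.13e-06). The rise in WT was small beside the scaling, since library totals moved the median of all genes with IgM there by -0.13. In RPKM, IER5 averaged 19.2 ± 0.0663 in WT with IgM and 18.6 ± 0.377 in WT untreated. The 2 calls of a higher difference in this list became 1 with DESeq2 and also without WT untreated replicate 2, without any of the 3 WT IgM libraries or without Y691F IgM replicate 2, and the 1 lower call became 2 without Y691F untreated replicate 3. HSF2, a paralog of HSF1, differed by -0.083 between the responses (edgeR adjusted p = 0.698), and HSF4 by -0.61 (adjusted p = 0.0704).

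All 8 subunits of the chaperonin TRiC, which folds actin and tubulin, were tested. With IgM, 7 rose and CCT6A fell in either line (6 rose and 1 fell in Y691F, and 5 rose and 2 fell in WT, with scaling by library totals), with a median log2 of 0.33 in Y691F and 0.27 in WT. The difference between the responses was small and called higher for CCT3, CCT5, CCT6A and CCT7, between 0.11 and 0.16. It was called lower for 0 subunits by edgeR, DESeq2 or limma-voom, for 0 at an unadjusted p under 0.05, and for 1 with scaling by library totals. This count of 4 was 1 with scaling by library totals, without WT untreated replicate 2 or without Y691F IgM replicate 3, and 2 without Y691F untreated replicate 1. Over all tested genes the difference was called higher for 14.7% and lower for 11.0%. With IgM, 37.1% of all tested genes rose and 38.7% fell in Y691F, and 38.4% rose and 38.5% fell in WT. In untreated cells 6 of the 8 were called lower in Y691F, at a median log2 of -0.14, where 16.1% of all tested genes were called lower.

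The list of collagen and collagen-modifying genes held 18 that were in the table, of which 9 were tested. COL1A1 and COL1A2, the chains that SERPINH1 escorts, reached at most 1.16 and 1.66 CPM in any library. COL1A2 held 23, 31 and 26 counts in Y691F and 8, 11 and 9 in WT with IgM, against 1, 0 and 1 in Y691F and 0, 0 and 0 in WT untreated. COL1A2 was higher with IgM in both lines. With IgM it stood higher in Y691F than in WT by a log2 of 1.46 ± 0.31, where SERPINH1 was lower. COL1A2 passed the filter through the IgM libraries alone, so no p is given for it. Its IgM responses differed by -1.09 ± 1.03 on the log2 scale, which was not called. The other 6 collagen genes did not pass the filter. The list shares 3 genes, COL1A1, COL1A2 and COL3A1, with the fibroblast markers. With IgM, 6 of the 9 rose, COL1A2 among them, and 2 fell in either line. Of all tested genes, 37.1% rose and 38.7% fell in Y691F, and 38.4% rose and 38.5% fell in WT. P4HB, the shared subunit of prolyl hydroxylase and also a general disulfide isomerase, averaged 1427 ± 29.3 CPM in Y691F and 1306 ± 43.4 CPM in WT with IgM, and 577 ± 24.7 CPM in Y691F and 446 ± 8.78 CPM in WT untreated. Its IgM responses differed by -0.24 (edgeR adjusted p = 8.07e-07), and PPIB stood at -0.095 (adjusted p = 0.0791). P3H1 and PLOD1 were called higher, at 0.25 and 0.20 (edgeR adjusted p = 0.00932 and 0.0223). The 2 calls of a higher difference became 1 with scaling by library totals, and also without WT untreated replicate 2, WT IgM replicate 1, Y691F untreated replicate 3 or Y691F IgM replicate 3. Over all tested genes this difference was called higher for 14.7% and lower for 11.0%. For SERPINH1, chosen for its IgM response, it was -3.39 ± 0.60 and was not tested.

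Among metal and oxidative stress genes MT2A had the smallest adjusted p, with 2 of 10 tested genes called lower in the difference and 0 called higher by edgeR, DESeq2 or limma-voom or at an unadjusted p under 0.05. Over all tested genes edgeR called the difference lower for 11.0% and higher for 14.7%. MT2A, a metallothionein that binds zinc, had 4.17, 3.97 and 4.82 CPM in Y691F with IgM, against 18.1, 16.7 and 17.9 CPM in WT with IgM. Untreated cells averaged 1.84 ± 0.294 CPM in Y691F and 3.26 ± 0.295 CPM in WT. MT2A rose with IgM in both lines, by a log2 of 1.22 ± 0.16 in Y691F and 2.43 ± 0.11 in WT, and the difference was -1.21 ± 0.21 (edgeR adjusted p = 2.47e-06). HMOX1, heme oxygenase, fell with IgM in Y691F and rose in WT, with a difference of -0.45 ± 0.11 (edgeR adjusted p = 9.35e-04). It averaged 15.7 ± 1.12 CPM in Y691F and 16.1 ± 0.552 CPM in WT with IgM, and 18.3 ± 1.86 CPM in Y691F and 13.8 ± 0.774 CPM in WT untreated, so its levels met with IgM. The rise in WT was small, at 0.23 ± 0.080, and scaling by library totals moved the median of all genes there by -0.13. In RPKM, HMOX1 averaged 5.21 ± 0.149 in WT with IgM and 4.89 ± 0.301 in WT untreated, with overlapping libraries. SLC30A1, a zinc exporter, stood at -0.29 (edgeR adjusted p = 0.129) and GCLM at 0.18 (adjusted p = 0.226).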

How the data were processed

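Gene counts and RPKM values of 12 libraries are the authors' deposited tables. Per the submitters' processing notes the tools were STAR 2.5.0b and DESeq2 and the genome GRCh38. The sources used here name no read counter, annotation, strand setting or gene lengths behind the RPKM. From the deposited counts, edgeR 4.0.16 (R 4.3.3) kept 15112 of 60675 genes with its own filter, scaled libraries by TMM and fitted the 4 groups together by quasi-likelihood (2-sided tests, Benjamini-Hochberg over all kept genes, threshold 0.05). CPM are counts scaled to a common TMM-adjusted library size. Each SE is approximate, taken as the size of the log2 change over the root of its F statistic. The members and gene lists were chosen with earlier results of these data known. Named list genes were up to 4 per list with the smallest adjusted p in the difference between the IgM responses, plus 8 set by name. The genes most like a member had the highest Pearson r of log2 CPM (prior count 2). Alternatives were DESeq2 1.42.0 size factors and test, limma-voom (limma 3.58.1), library totals, other filters, summed copies, a replicate block, the untreated libraries alone and leaving out each library. Members that pass the filter only through the IgM libraries got no p in untreated cells. The fit was tested on simulated data. Transcript identity was computed from GENCODE 29 transcripts. Same-numbered libraries did not deviate together, with r between -0.0621 and 0.0302 in 18 pairs.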

Additional observations from a re-analysis of the deposited data

Results flagged for a closer look

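For DNAJB1, HSPA1A and HSPA1B every IgM library lay below the untreated ones in Y691F and above them in WT. The log2 difference between the IgM responses of Y691F and WT was -1.53 for DNAJB1, -1.90 for HSPA1A and -1.73 for HSPA1B, and this difference was not tested because the IgM libraries chose these genes.

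Outside the members, the difference between the IgM responses passed the edgeR test for 17 named genes. Apart from the genes set by name, named genes were those with the smallest adjusted p of their list in this difference. The count of passes therefore follows largely from that choice, and nothing is read from it. Over all tested genes the difference was called higher for 14.7% and lower for 11.0%. The difference was negative for MT2A at -1.21, DNAJA4 at -0.78, BAG3 at -0.55, HMOX1 at -0.45, IER5 at -0.32 and P4HB at -0.24. It was positive for CBX8 at 0.47, DNAJB6 at 0.32, P3H1 at 0.25, HSPD1 at 0.22, DEDD2 at 0.22, PLOD1 at 0.20 and DNAJA1 at 0.16. The chaperonin subunits CCT5, CCT7, CCT3 and CCT6A had differences of 0.16, 0.12, 0.11 and 0.11.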

How the results depend on the processing

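Over 22 alternatives, 968 log2 changes of the members were recomputed. Only the change of HSPA6 with IgM in Y691F and the uncalled change of HSPA8 in untreated Y691F took both signs. For comparisons with IgM libraries the sign is described without a test. Of the 8 members that the untreated libraries alone keep, a set chosen after seeing the data, 5 were called lower in untreated Y691F, against 4 with a 5 CPM filter, 4 with the untreated libraries alone and 4 to 6 when each library was left out. The count called higher was 0 under all of them. In the main fit 15.1% of all tested genes were called higher and 16.1% lower. Among the 32 chaperones, the count called higher in untreated Y691F was 3, against 5 with library totals and 5 with the 5 CPM filter. With library totals, 14 chaperones fell with IgM in Y691F, against 7, and 11 fell in WT, against 7. In WT with IgM, 2 TRiC subunits fell with library totals, against 1, and 5 collagen-list genes fell with no filter on low counts, against 2. The count of collagen-list genes with a lower difference was 2 with library totals and with the 5 CPM filter, against 1. The cause of these moves was not tested. The replicate numbers do not pair the samples, and with the replicate block the untreated count over the 8 members was again 0 higher and 5 lower. Without WT untreated replicate 1, SERPINH1 changed by 4.34 with IgM in WT. The 5 CPM filter dropped SERPINH1, and the fit of the untreated libraries alone kept 8 members. Depth limits HSPA6 and SERPINH1 most, with 2 to 21 and 3 to 8 counts per untreated library.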
